A study of Mus musculus with 15 samples.

Results

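Serpins, a large family of protease inhibitors and related proteins, were followed in the livers of mice fed a standard chow or a diet that induces steatohepatitis. Members were all probe sets of the array whose annotation gives a single gene symbol beginning with Serpin, 56 of 45101 probe sets, and they carry 40 gene symbols. The letter after Serpin names the clade, an evolutionary branch of the family, and the members fell into clades a, b, c, d, f, g, h and i. Clade e was not analysed here. Male C57BL/6J mice, 8 weeks old at the start, were fed for 12 weeks and formed 3 groups of 5. The NC group received the standard chow CRF-1. The CL group received the CL diet, in which cocoa butter made up 60% and CRF-1 38.23% of the food, with 0.5% sodium cholate and a cholesterol content of 1.25%. The CL+CX group received this CL diet with added β-cryptoxanthin, a carotenoid, given as 0.003% in one description of the samples and as 0.005% in their titles. Cholate is thus part of both CL diets and absent from the chow, and all animals were males of 1 inbred strain. RNA of whole liver from each mouse was measured on an Affymetrix array of its own.

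An inhibitory serpin presents a bait loop to its target protease, which cuts the loop and is then trapped in a covalent complex that is cleared by the cell or by liver receptors. Hepatocytes secrete most serpins of blood plasma, among them α1-antitrypsin, antithrombin and C1 inhibitor, while clade b serpins stay inside cells and guard them against proteases such as granzymes and cathepsins. Some members do not inhibit proteases and serve as hormone carriers, as a collagen chaperone or as growth-regulating factors.

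The promoters of the 4 clade b genes whose signals rose on the CL diet are shown, and this rise, in the results that follow, was the reason for the choice. Each is the 250 bases before the gene's start in RefSeq on GRCm38.p6, read 5′ to 3′, and capitals mark a matched motif.
Serpinb6a, chr13:34002795-34003044, minus strand: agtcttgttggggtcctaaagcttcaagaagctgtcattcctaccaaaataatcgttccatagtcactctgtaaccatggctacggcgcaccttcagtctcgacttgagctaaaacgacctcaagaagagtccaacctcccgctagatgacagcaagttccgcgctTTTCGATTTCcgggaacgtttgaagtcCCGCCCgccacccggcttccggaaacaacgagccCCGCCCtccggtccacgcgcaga
Serpinb6b, chr13:32965011-32965260, plus strand: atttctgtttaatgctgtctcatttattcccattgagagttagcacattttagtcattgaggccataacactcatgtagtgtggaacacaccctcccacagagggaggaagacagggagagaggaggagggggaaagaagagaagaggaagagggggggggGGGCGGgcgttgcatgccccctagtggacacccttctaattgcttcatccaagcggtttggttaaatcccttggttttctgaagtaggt
Serpinb8, chr1:107589756-107590005, plus strand: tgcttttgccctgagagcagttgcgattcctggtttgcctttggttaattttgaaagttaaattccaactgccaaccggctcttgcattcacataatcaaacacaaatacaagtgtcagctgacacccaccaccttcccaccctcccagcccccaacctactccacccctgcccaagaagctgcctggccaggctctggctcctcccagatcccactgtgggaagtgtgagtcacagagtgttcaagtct
Serpinb9, chr13:33004291-33004540, plus strand: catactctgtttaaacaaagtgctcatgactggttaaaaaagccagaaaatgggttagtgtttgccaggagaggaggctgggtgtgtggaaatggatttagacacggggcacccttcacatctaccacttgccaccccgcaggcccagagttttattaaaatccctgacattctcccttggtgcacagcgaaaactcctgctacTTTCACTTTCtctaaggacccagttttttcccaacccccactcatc
In the Serpinb6a promoter, capitals mark an interferon regulatory factor (IRF) element 84 bases before the start and 2 GC boxes at 57 and 23 bases. RefSeq has a second start of Serpinb6a, whose 250 bases hold neither of these and a CCAAT box at 79 bases. An IRF element also lies 46 bases before the start of Serpinb9. The Serpinb6b promoter holds 1 GC box, at 89 bases, and that of Serpinb8 holds none of the motifs searched. Both strands were searched for the TATA box TATAAA, the CCAAT box, the GC box GGGCGG, the PU.1 core GAGGAAGT, the IRF element GAAANNGAAA, the NF-kB element GGGNNTTNCC, the C/EBP element TTGCNNAA and the HNF1 core GTTAATNATT, where N is any base. The matches named here do not overlap. Of 32851 promoters of this length, 2.98% held the IRF element, 32.7% the GC box, 12.4% the TATA box, 33.8% CCAAT, 2.44% the PU.1 core, 4.11% the NF-kB element, 9.56% the C/EBP element and 0.371% the HNF1 core. Among other genes that passed the test below, Serpina12 held a CCAAT box, a GC box and a C/EBP element, Serpinf1 held 3 CCAAT boxes, Serpinh1 held 1 GC box, and Serpina7 held a TATA box and a C/EBP element. These matches are descriptions of the letters and not of bound factors. In all, 34 of the 40 genes matched an entry, and Serpinb1a and Serpina6 did not.

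Signals are given as log2 values after the arrays were brought to the same 75th percentile, so a difference of 1 on this scale is a 2-fold difference, and levels of different probe sets are not compared. Of the 56 members, 29 probe sets of 21 genes reached the median of their array in all 5 arrays of at least 1 group and were tested, as were 20342 probe sets in all. For members that passed this filter through 1 group alone, the filter itself favoured a higher value there. Differences were tested with limma, with p adjusted over all 20342 probe sets and a threshold of 0.05. All 8 hepatocyte markers, such as Alb and Apoa1, were tested and none lay below the array median throughout a group. CL replicate 2 had the lowest mean correlation with the other arrays of its diet, 0.941 beside 0.957 to 0.962 for the remaining CL mice, and calls that turned on this mouse are given with and without it.

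On the CL diet, serpins changed in both directions. Probe sets of 7 genes rose, namely the intracellular Serpinb6a, Serpinb6b, Serpinb8 and Serpinb9, the vaspin gene Serpina12, the thyroxine carrier gene Serpina7, and the collagen chaperone gene Serpinh1. Those of 3 genes fell, namely Serpinb1a, Serpina6 and Serpinf1. Counted by probe set, 14 of 29 tested members were called in CL against NC, where 12.2% of all probe sets tested were called. Of these, 9 were higher, against 5.9% of all, and 5 were lower, against 6.35% of all. The methods' test called 3 higher and 4 lower, and 1379 of all 20342 probe sets, where the main fit called 2491. A fit with an RNA quality covariate, the β-actin value described later, called 4 higher and 5 lower, and 1139 of all. The 9 higher calls include 2 of Serpinb8 and the dimmer probe set of Serpinb9, all of which reached the filter without NC. The 5 lower calls include the dimmer Serpinb1a probe set, which reached it through NC alone. The median difference over the 29 members was -0.24, beside -0.09 over all probe sets tested. Clade b held 6 of the 9 higher calls and 2 of the 5 lower ones among its 9 tested probe sets, and its median difference was 0.88, or 0.47 with Serpinb8 set at the bounds given later. Clade a held 2 higher calls and 1 lower call among 12 tested probe sets, with a median of -0.36 and a range of -1.09 to 2.49. In clade f, 2 of 3 tested probe sets were lower. In clade h, 1 of 2 was higher. The single tested probe sets of clades c, d and g were not called. Clade i, the neuroserpin branch, had no tested probe set.

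**Figure D1:**
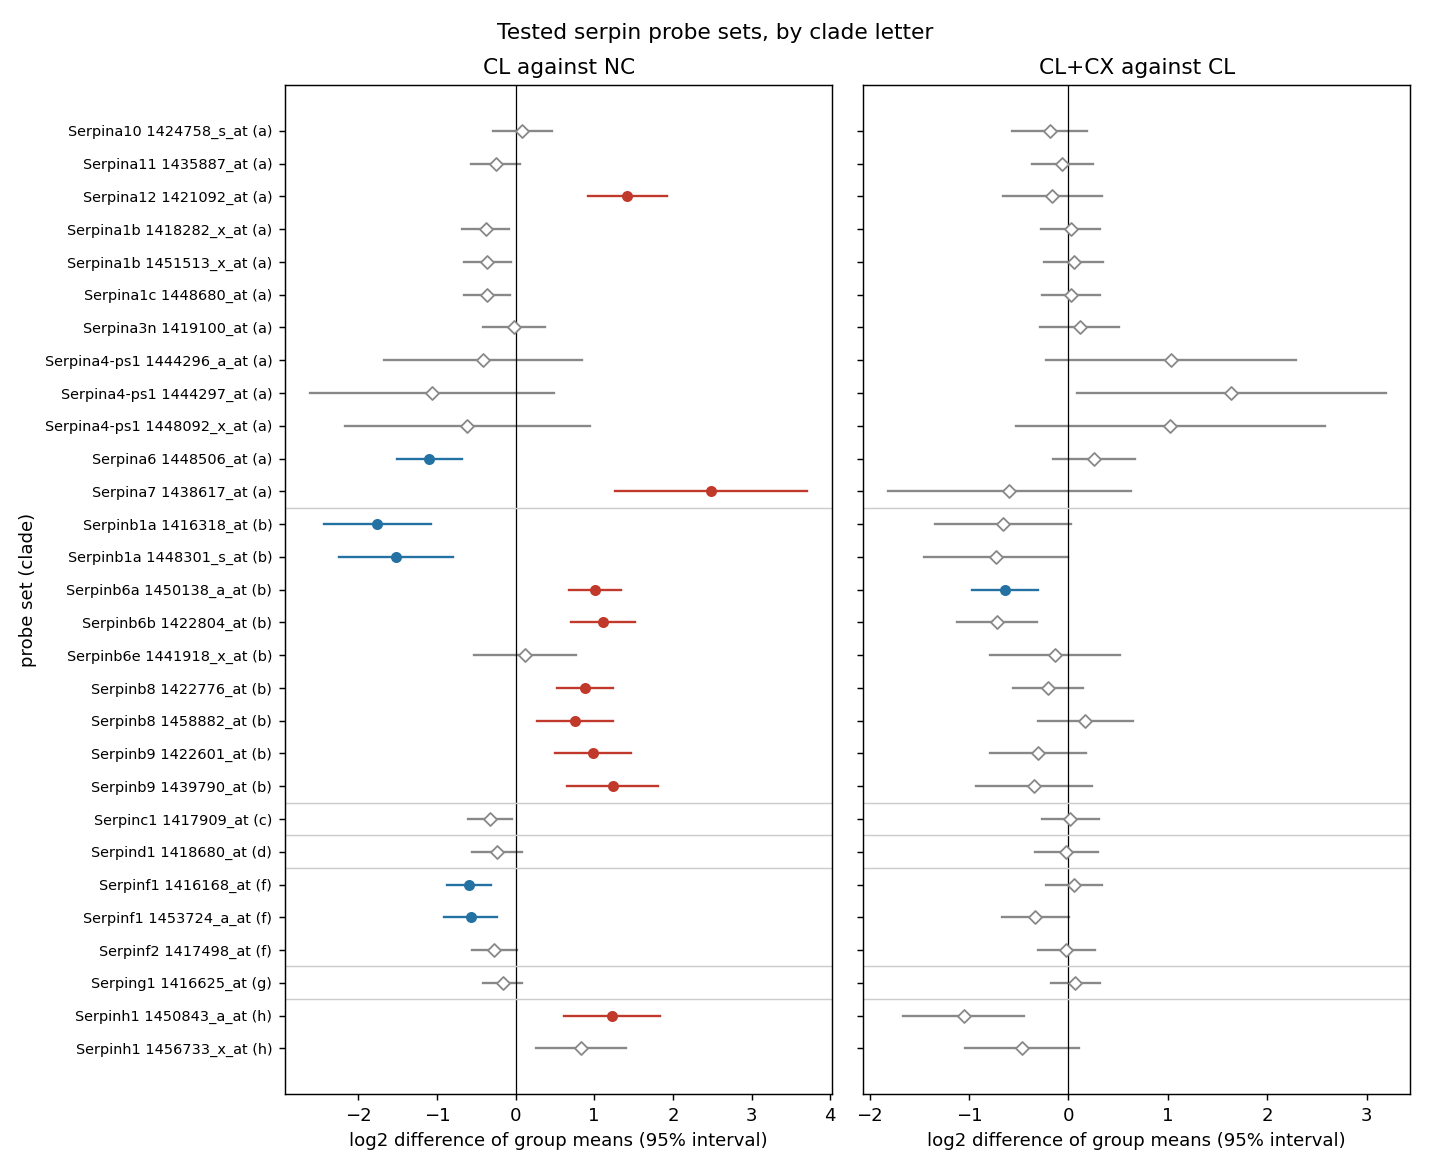
Differences of group means (log2 scale, horizontal axes) for the 29 tested serpin probe sets, one per line and ordered by clade, with 95% intervals, for CL against NC on the left and CL+CX against CL on the right. Filled red and blue circles passed the threshold as higher and lower, and open diamonds did not. On the left 14 members are filled, on the right 1.

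Clade b serpins lack a classical secretion signal and act in the cytosol or nucleus. Serpinb6a encodes a broad inhibitor of trypsin-like proteases and cathepsin G. Its log2 signal was 6.56, 6.81, 6.93, 6.66 and 6.65 in the NC mice, 7.69, 7.82, 7.73, 7.43 and 7.99 in the CL mice, and 7.65, 7.13, 6.81, 6.90 and 6.99 in the CL+CX mice. Every CL mouse lay above every NC mouse, and 4 of the 5 CL+CX mice lay below every CL mouse. Serpinb6a rose by 1.01 in CL against NC (SE 0.156, adjusted p = 0.00079), a 2.01-fold difference. Its near relative Serpinb6b lies on the same chromosome, 13. Signals of Serpinb6b were 5.34, 5.02, 5.48, 5.98 and 5.41 in NC, 6.57, 6.75, 6.56, 6.79 and 6.13 in CL, and 6.21, 5.57, 5.49, 6.12 and 5.82 in CL+CX. The lowest CL mouse was above the highest NC mouse, and the CL+CX mice spread across the upper NC and lower CL values. Serpinb6b rose by 1.11 in CL against NC (SE 0.190, adjusted p = 0.00168). A probe set of Serpinb6e, which can also match other transcripts, differed by 0.12 (95% interval -0.53 to 0.77, adjusted p = 0.835).

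Serpinb9 encodes the inhibitor of granzyme B, which protects cytotoxic cells from their own granules. Its brighter probe set read 5.67, 6.28, 5.61, 6.23 and 6.01 in NC, 6.49, 7.48, 7.01, 7.16 and 6.58 in CL, and 6.66, 6.15, 6.42, 6.69 and 7.27 in CL+CX. NC and CL did not overlap, whereas CL+CX overlapped both. The probe sets rose by 0.98 (SE 0.226, adjusted p = 0.0107) and by 1.23 (SE 0.274, adjusted p = 0.00885) in CL against NC. Both calls were lost in the methods' test (adjusted p = 0.0603 and 0.0841) and with the β-actin covariate (adjusted p = 0.075 and 0.0681). The dimmer probe set, the second of these, passed the filter without NC, where 3 of 5 arrays reached the array median. Its rise is thus not further evidence of the direction. Serpinb8, an intracellular inhibitor known to act on furin in vitro, was dim. Its log2 signal was 3.40, 2.94, 3.03, 3.39 and 3.27 in NC, 4.49, 4.12, 3.89, 4.03 and 3.93 in CL, and 3.38, 3.82, 3.90, 4.11 and 4.23 in CL+CX. Both Serpinb8 probe sets were under the array median in every NC mouse, so only lower bounds of the fold are given, taken against the array median. The first probe set passed the filter through CL alone and the other through CL+CX alone. The filter itself thus favoured a higher value there than in NC. Serpinb8 was at least 1.39-fold higher in CL by the first probe set (adjusted p = 0.00329) and at least 1.20-fold by the other (adjusted p = 0.0403). The second call was lost in 15 of 24 alternative analyses, where adjusted p ranged from 0.0192 to 0.141.

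Serpinb1a, whose product inhibits neutrophil elastase and related granule proteases, went the other way. Its brighter probe set read 7.60, 7.92, 8.30, 7.48 and 8.05 in NC, 6.13, 6.87, 6.68, 5.01 and 5.89 in CL, and 5.01, 5.12, 6.25, 5.13 and 5.79 in CL+CX. No mouse on either CL diet reached the lowest NC value. The signal fell by 1.76 in CL against NC (SE 0.322, adjusted p = 0.00272), a 3.38-fold lower level. In CL+CX against NC it fell by 2.41 (adjusted p = 0.000654), a 5.32-fold lower level. The dimmer probe set passed the filter through NC alone, where it is high, and reached the array median on 4 CL arrays and 1 CL+CX array. Its differences were -1.51 and -2.24 (adjusted p = 0.00952 and 0.00144) and are not further evidence of the direction. In the RefSeq order on chromosome 13, Serpinb1a is the first of 11 member genes, followed by Serpinb6b and Serpinb9, which moved in the opposite direction. Of the 18 clade b genes in all, 6 had a tested probe set.

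**Figure D2:**
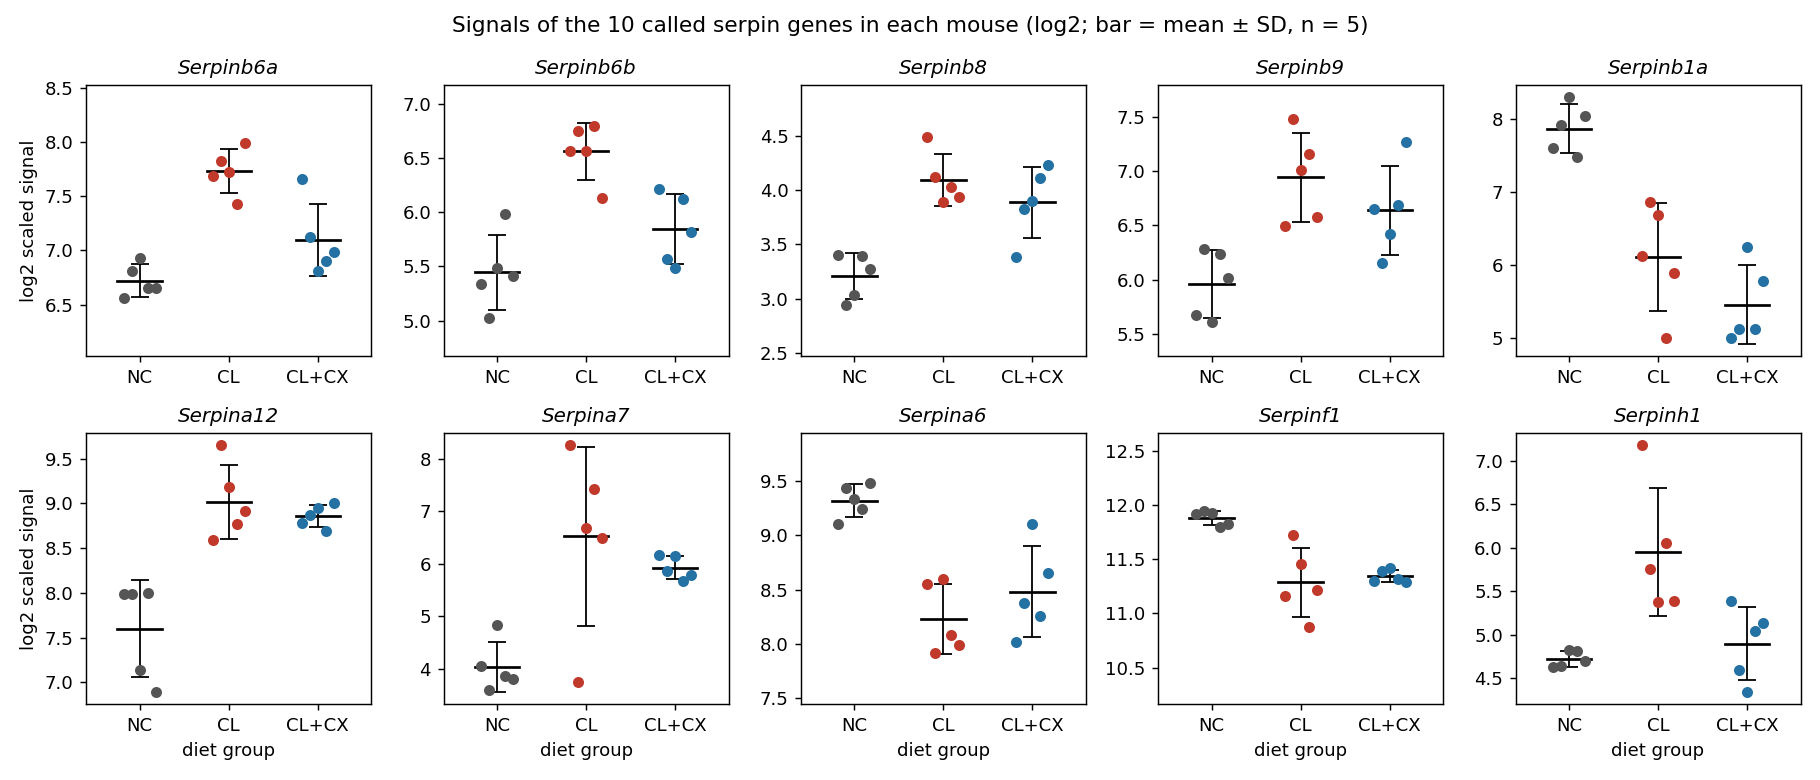
Log2 scaled signal (vertical axes) of the 10 serpin genes called in at least 1 comparison, in each of 15 mice by diet group, with points for mice and bars for mean ± SD (n = 5). The probe set of highest mean signal is drawn, or for Serpinh1 the one that was called. For Serpina7 the CL mouse at 3.75 lies among NC values and the other 4 lie above them.

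Markers of immune cells also differed between the diets. All 10 macrophage markers rose in CL against NC, with a median of 2.01. Their score, the mean log2 difference from the NC mean, was -0.68 to 0.40 in NC mice, 1.82 to 2.11 in CL mice and 0.20 to 1.52 in CL+CX mice, and none of the 10 lay below the array median throughout a group. The 3 tested T and NK cell markers of a list of 11 also rose, with a score of -0.47 to 0.51 in NC, 0.45 to 1.31 in CL and 0.10 to 1.11 in CL+CX. Of that list, 7 genes were under the array median in every NC mouse and 2 in every CL mouse. None of 3 tested neutrophil markers was called. In whole liver, fewer cells of a type and less RNA per cell cannot be told apart, and the part of these cells in the serpin differences was not tested.

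Clade a holds the hormone carriers, which bind steroids or thyroid hormones and do not inhibit proteases. Serpina6 encodes corticosteroid-binding globulin. Its log2 signal was 9.11, 9.44, 9.33, 9.24 and 9.48 in NC, 8.55, 7.92, 8.60, 8.08 and 7.99 in CL, and 8.02, 8.37, 9.10, 8.26 and 8.65 in CL+CX. Every mouse on a CL diet lay below every NC mouse, with 1 CL+CX mouse just under the lowest. Serpina6 fell by 1.09 in CL against NC (SE 0.193, adjusted p = 0.0021), a 2.13-fold lower level, and this call held in all 25 alternative analyses.

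Serpina7 encodes thyroxine-binding globulin, the main carrier of thyroid hormone in human plasma, and lies on chromosome X. Signals were 4.06, 3.60, 4.83, 3.86 and 3.81 in NC, 8.26, 3.75, 6.68, 7.43 and 6.49 in CL, and 6.16, 5.85, 6.15, 5.68 and 5.79 in CL+CX. The 4 other CL mice lay far above NC, but CL replicate 2 lay among the NC values, so these groups overlap. Serpina7 rose by 2.49 in CL against NC (SE 0.575, adjusted p = 0.011), the largest difference among the tested members. Without CL replicate 2 it rose by 3.18 (adjusted p = 9.38e-05). The call was lost in 2 of 24 alternatives, the methods' test (adjusted p = 0.0607) and the β-actin covariate (adjusted p = 0.0592). Serpina7 also rose in CL+CX against NC, by 1.90 (adjusted p = 0.0488), where the groups did not overlap. That call was lost in 16 of 24 alternative analyses, with adjusted p up to 0.155, and it had an adjusted p of 0.00167 without CL replicate 2.

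Serpina12 encodes vaspin, an inhibitor first known as a product of visceral fat. Its log2 signal was 7.99, 7.99, 7.14, 8.0 and 6.89 in NC, 8.59, 9.65, 9.19, 8.77 and 8.91 in CL, and 8.79, 8.87, 8.95, 8.69 and 9.01 in CL+CX. All 10 mice on a CL diet lay above all NC mice. Serpina12 rose by 1.42 in CL against NC (SE 0.236, adjusted p = 0.00137) and by 1.26 in CL+CX against NC (adjusted p = 0.00471). Each call was lost in 1 of 25 alternatives, the methods' test, with an adjusted p of 0.0572 in both comparisons.

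The tested plasma serpins Serpina1b, Serpina1c, Serpina3n, Serpina10, Serpina11, Serpinc1, Serpind1, Serpinf2 and Serping1 were not called in CL against NC. Serpina1c, a gene of α1-antitrypsin, the main inhibitor of neutrophil elastase in plasma, read 13.38, 13.59, 13.37, 13.18 and 13.36 in NC, 12.71, 13.49, 12.99, 12.85 and 13.04 in CL, and 12.93, 12.97, 13.19, 13.00 and 13.12 in CL+CX. In CL, 4 mice lay below every NC mouse and CL replicate 2 lay among the highest NC values. The difference was -0.36 for Serpina1c (adjusted p = 0.0992) and -0.38 and -0.36 for the probe sets of Serpina1b (adjusted p = 0.0866 and 0.11), whose near-identical sequences these probe sets may share. In Serpinc1, the gene of antithrombin, CL replicate 2 was likewise the highest CL mouse and the other 4 lay below every NC mouse. Its signals were 12.80, 12.95, 12.77, 12.70 and 12.72 in NC, 12.29, 12.96, 12.53, 12.18 and 12.36 in CL, and 12.31, 12.49, 12.57, 12.51 and 12.53 in CL+CX, a difference of -0.32 in CL against NC (adjusted p = 0.131). Without CL replicate 2, all 4 of these probe sets passed the threshold as lower, Serpina1b at -0.50 and -0.49 (adjusted p = 0.00617 and 0.00762), Serpina1c at -0.48 (adjusted p = 0.00813) and Serpinc1 at -0.45 (adjusted p = 0.00776). Whether these plasma inhibitors were called thus rested on 1 mouse. Without this mouse, 3842 of all 20342 probe sets were called in CL against NC in either direction, beside 2491 with it.

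Serpina3n, a mouse antichymotrypsin gene known for its rise in acute inflammation, read 9.61, 10.31, 9.31, 10.27 and 9.59 in NC, 9.58, 9.94, 9.97, 9.65 and 9.87 in CL, and 9.92, 9.82, 9.70, 9.86 and 10.28 in CL+CX. The NC mice already spanned the range of both other groups, and the difference in CL against NC was -0.02 (95% interval -0.41 to 0.38, adjusted p = 0.967). Serpina10, whose product inhibits coagulation factor Xa with protein Z, read 10.09, 10.19, 9.94, 10.11 and 9.84 in NC, 10.05, 10.51, 10.03, 10.24 and 9.76 in CL, and 9.44, 9.82, 9.88, 9.99 and 10.50 in CL+CX, with a difference of 0.08 in CL against NC (95% interval -0.29 to 0.46). All 3 groups overlapped.

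Serpind1, the gene of heparin cofactor II, an inhibitor of thrombin, read 10.56, 10.79, 10.74, 10.36 and 10.51 in NC, 10.50, 10.55, 10.63, 9.80 and 10.30 in CL, and 10.31, 10.37, 10.50, 10.21 and 10.30 in CL+CX. The difference in CL against NC was -0.24 (95% interval -0.55 to 0.08), and CL replicate 4 was the lowest of the 15 mice. Serpinf2, the gene of the plasmin inhibitor α2-antiplasmin, read 10.98, 11.29, 11.12, 11.02 and 10.99 in NC, 10.77, 11.10, 11.12, 10.52 and 10.54 in CL, and 10.62, 10.71, 10.92, 10.83 and 10.87 in CL+CX. Its difference in CL against NC was -0.27 (95% interval -0.56 to 0.02), with CL split between values within and below the NC range. Serping1, the gene of the complement inhibitor C1 inhibitor, read 12.14, 12.46, 12.12, 12.18 and 12.11 in NC, 11.85, 12.25, 12.16, 11.92 and 12.04 in CL, and 11.94, 12.07, 12.15, 12.06 and 12.35 in CL+CX, a difference of -0.16 (95% interval -0.41 to 0.09). The groups of Serping1 overlapped. Serpina11, a clade a gene of less known function, differed by -0.25 (adjusted p = 0.284).

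The pseudogene Serpina4-ps1 stood apart by its spread. One of its 3 probe sets read 5.35, 5.47, 5.30, 5.62 and 5.65 in NC, 3.79, 6.41, 5.39, 5.47 and 4.26 in CL, and 3.98, 5.26, 7.02, 7.74 and 6.47 in CL+CX. The NC mice lay within a narrow band, with an SD of 0.156, while the SD was 1.04 in CL and 1.49 in CL+CX. The 3 probe sets differed by -0.41, -1.06 and -0.61 in CL against NC (adjusted p = 0.7, 0.379 and 0.637) and by 1.03, 1.64 and 1.03 in CL+CX against CL (adjusted p = 0.359, 0.226 and 0.475). None was called.

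Serpinf1 encodes pigment epithelium-derived factor, a secreted serpin without inhibitory activity that limits vessel growth. Its brighter probe set read 11.91, 11.94, 11.93, 11.80 and 11.82 in NC, 11.16, 11.72, 11.46, 10.88 and 11.21 in CL, and 11.30, 11.39, 11.42, 11.32 and 11.29 in CL+CX. Every NC mouse lay above every mouse on either CL diet. Both probe sets were lower in CL against NC, with differences of -0.60 (SE 0.132, adjusted p = 0.00871) and -0.57 (SE 0.159, adjusted p = 0.0288). The second of these calls was lost in 10 of 25 alternatives, with adjusted p up to 0.45. In CL+CX against NC the differences were -0.54 and -0.91 (adjusted p = 0.0196 and 0.00344). These calls were lost in 3 of 26 and 1 of 25 alternatives, with adjusted p up to 0.261 and 0.051. With the signals as deposited, without scaling between arrays, the median of all probe sets moved to 0.23 in CL against NC, and the brighter Serpinf1 probe set differed by -0.28 (adjusted p = 0.282). On that scale 96.2% of all calls in CL against NC were higher, and the serpin calls were 10 higher and 3 lower.

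Serpinh1 encodes HSP47, the endoplasmic reticulum chaperone of collagen, made by collagen-producing cells. The probe set called read 4.63, 4.64, 4.83, 4.82 and 4.70 in NC, 7.18, 5.76, 5.38, 6.05 and 5.39 in CL, and 5.38, 4.60, 4.34, 5.04 and 5.13 in CL+CX. CL lay above NC without overlap, CL replicate 1 was the highest by more than 1 log2 unit, and the highest CL+CX mouse reached the lowest CL mice. Serpinh1 rose by 1.23 in CL against NC (SE 0.286, adjusted p = 0.0116). The call was lost with no filter (adjusted p = 0.0516), in the methods' test (adjusted p = 0.13) and with the β-actin covariate, where the difference was 0.95 (adjusted p = 0.0843). The other probe set, which is brighter and can match further transcripts, read 5.53, 5.21, 4.24, 5.57 and 5.53 in NC, 6.89, 5.76, 5.76, 6.13 and 5.69 in CL, and 5.83, 5.14, 5.69, 5.50 and 5.76 in CL+CX. It differed by 0.83 (adjusted p = 0.0552), and by 0.91 without CL replicate 2 (adjusted p = 0.043). Stellate cell markers moved beside Serpinh1. Of 9 tested, 3 rose in CL against NC, and the score of all 10 listed was -0.50 to 0.57 in NC, 0.12 to 1.37 in CL and -0.0026 to 0.76 in CL+CX, with none below the array median throughout a group. Their part in the Serpinh1 difference was not tested. Of 10 tested collagen genes and folding partners of HSP47, Col5a2 rose (1.58, adjusted p = 0.0409) and 9 were not called. Col1a1, Col1a2 and Col3a1 stand on both of these lists.

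**Figure D3:**
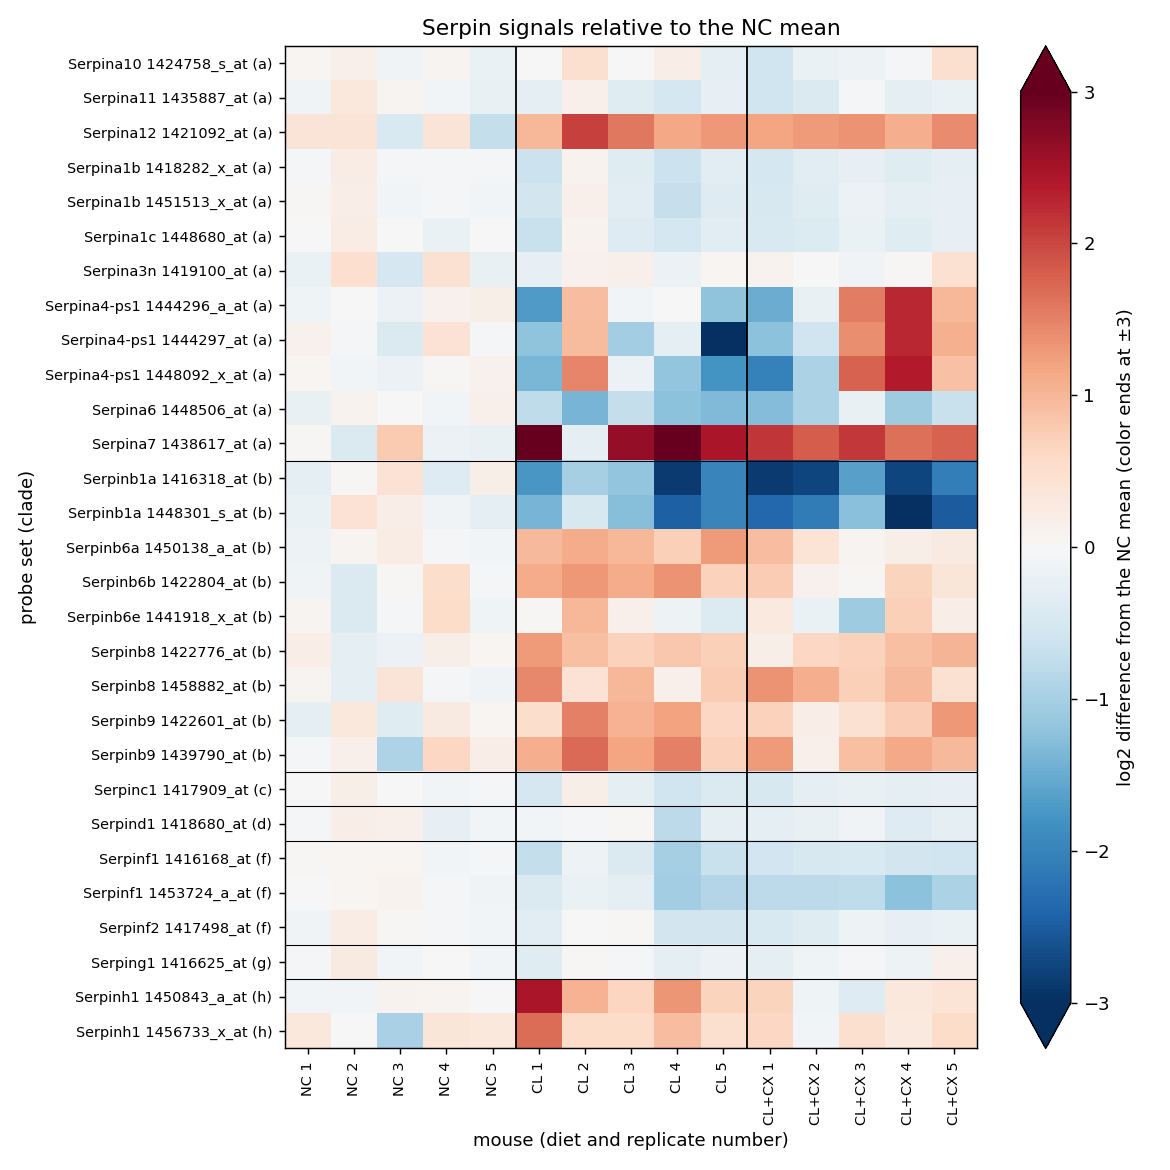
Log2 difference of each mouse (columns, by diet and replicate number) from the NC mean for the 29 tested serpin probe sets (rows of the map, by clade), with red for higher, blue for lower and colors ending at ±3. Serpinb1a is blue in all mice on CL diets, Serpina7 is near the NC mean in CL replicate 2 and red in the other CL mice, and the 3 Serpina4-ps1 probe sets vary together among mice on CL diets.

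Adding β-cryptoxanthin to the CL diet was followed by a difference past the threshold in 1 serpin gene. In CL+CX against CL, 1 of 29 members was called, where 3.13% of all probe sets were called. It was the lower Serpinb6a, against 1.55% of all called lower, and no member was called higher, against 1.58% of all. At an unadjusted p under 0.05, 1 member was higher and 4 were lower, where 11.2% and 8.5% of all probe sets were. The median difference over the members was -0.06, beside 0.04 over all probe sets tested. Serpinb6a fell by 0.64 (95% interval -0.97 to -0.30, adjusted p = 0.0403). This call was lost in 15 of 25 alternative analyses, with adjusted p from 0.00997 to 0.91, and 0.0619 without CL replicate 2. Serpinb6b differed by -0.72 (95% interval -1.12 to -0.31, adjusted p = 0.0517) and was called in 8 of 25 alternatives. The called Serpinh1 probe set differed by -1.05 (95% interval -1.66 to -0.44, adjusted p = 0.057) and was called in 4 of 24.

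Several values moved with these differences. Of the macrophage markers, 8 of 10 fell in CL+CX against CL, with a median of -1.27, and of the sinusoidal endothelial markers 2 of 7 fell. Beside Serpinh1, 1 of 9 stellate markers fell, Dcn by 0.51 (adjusted p = 0.0388), and 1 of 10 collagen genes and folding partners was lower, the prolyl hydroxylase gene P4ha1 (-0.98, adjusted p = 0.0206). The difference between a 3′ and a 5′ probe set of β-actin, a sign of RNA quality and labelling, was 0.82 ± 0.0968 in CL and 1.07 ± 0.101 in CL+CX (log2, mean ± SD, n = 5), with 0.94 ± 0.0859 in NC, and every CL+CX array lay above every CL array. With this value as a covariate, Serpinb6a differed by -0.54 and was not called (adjusted p = 0.91), and 1 probe set of the whole array was. Of the other genes called in CL against NC, the 95% interval of CL+CX against CL was -0.66 to 0.34 for Serpina12, -0.15 to 0.67 for Serpina6 and -1.82 to 0.63 for Serpina7. For the brighter and the dimmer Serpinb1a probe set it was -1.34 to 0.03 and -1.45 to -0.0023 (adjusted p = 0.274 and 0.252), and for those of Serpinb9 it was -0.79 to 0.17 and -0.93 to 0.24. It was -0.22 to 0.34 and -0.67 to 0.0032 for those of Serpinf1, and -0.56 to 0.15 and -0.31 to 0.65 for those of Serpinb8. Without CL replicate 2, Serpina7 fell by 1.29 (adjusted p = 0.0492).

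In CL+CX against NC, 9 members were called, where 9.79% of all probe sets were. Of these, 4 were higher, against 4.81% of all, and 5 were lower, against 4.98% of all. The higher ones were Serpina12, Serpina7 and both probe sets of Serpinb8, and the lower ones were Serpina6 and both probe sets each of Serpinb1a and Serpinf1. Serpinb8 was at least 1.21-fold higher by the first probe set (adjusted p = 0.0193) and at least 1.35-fold by the other (adjusted p = 0.0192). These Serpinb8 calls were lost in 5 of 25 and 2 of 24 alternatives. Serpina6 fell by 0.84 (SE 0.193, adjusted p = 0.0143). Its call was lost with no filter (adjusted p = 0.0654), with signals as deposited (adjusted p = 0.123) and with the β-actin covariate (adjusted p = 0.111). The comparisons of CL and of CL+CX with NC share the NC mice. Serpinb6a and Serpinb6b, called in CL against NC, differed by 0.38 and 0.39 in CL+CX against NC (adjusted p = 0.134 and 0.199), Serpinb9 by 0.68 and 0.89 (adjusted p = 0.0695 and 0.0522) and the called Serpinh1 probe set by 0.18 (adjusted p = 0.737). Without CL replicate 2, which enters this comparison only through the estimate of spread, 3055 of all 20342 probe sets were called, beside 1991 with it. In that fit 14 members were called, 6 higher and 8 lower. Those added were both Serpinb9 probe sets (adjusted p = 0.0435 and 0.0404), a Serpina1b probe set at -0.36 (adjusted p = 0.0312, 0.11 with the mouse), Serpina1c at -0.33 (adjusted p = 0.0414, 0.13 with it) and Serpinc1 at -0.30 (adjusted p = 0.0434, 0.158 with it).

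The proteases that serpins control were counted from fixed lists of genes outside the family. Of 13 tested coagulation and complement proteases, the targets of antithrombin, C1 inhibitor and their relatives, 4 were lower in CL against NC and none was higher, with a median of -0.33. These were F10 (-0.41, adjusted p = 0.0208), F12 (-0.35, adjusted p = 0.0392), Klkb1, the gene of plasma kallikrein (-0.56, adjusted p = 0.00974), and Masp1 (-0.44, adjusted p = 0.0259). Plg, the gene of plasminogen, fell by 0.44 (adjusted p = 0.0382), and the other tested gene of fibrinolysis was not called. None of 10 leukocyte granule proteases, which include targets of Serpinb1a, Serpinb6a and Serpinb9, reached the filter. Of 10 tested cysteine cathepsins and caspases, 4 rose in CL against NC, namely Ctss by 2.28, Casp4 by 1.53, Ctsb by 0.37, and Casp1 (adjusted p = 0.000396). Ctss, which is also on the macrophage list, fell by 1.04 in CL+CX against CL (adjusted p = 0.0353). None of the 3 tested clearance receptors was called in CL against NC, and Lrp1 rose by 0.67 in CL+CX against NC (adjusted p = 0.0393).

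Of 13 tested inhibitors outside the family, 4 fell in CL against NC, namely Agt (-0.71), Itih2 (-0.65), Itih1 (-0.62) and Pzp (-0.42), and Cstb, the gene of the cathepsin inhibitor stefin B, rose by 0.50. The other 8 were not called, and the list's median difference was -0.14. Agt encodes angiotensinogen, which has a serpin fold although its symbol does not carry the name. Beside Serpina3n, 16 other acute phase genes were tested, of which Saa3 and Orm3 rose (1.83 and 1.25), Itih4 fell by 0.57, and 13 were not called. None of these inhibitors and acute phase genes was called in CL+CX against CL. In CL against NC, 2 of the 8 hepatocyte markers fell, and their score was -0.08 to 0.19 in NC, -0.78 to -0.10 in CL and -0.62 to -0.36 in CL+CX. Its part in the values of the plasma serpins was not tested.

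The remaining 27 members were not tested, and 19 genes had no tested probe set. Their group means lay between 0 and 3.83 on the log2 scale, where array medians lay between 3.50 and 3.76, and no single value was above 4.46. Only 3 of the 27 reached the array median on any array. These were a second Serpina12 probe set, on 4 CL and 2 CL+CX arrays and on no NC array, a Serpinb9b probe set and a Serpini1 probe set. Among the genes not tested were Serpina5, the gene of protein C inhibitor, Serpinb2, the gene of plasminogen activator inhibitor type 2, Serpinb5, the gene of maspin, with 4 probe sets, and the neuroserpin gene Serpini1. No test was made of these members, and signals this low do not show that the genes are silent.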

How the data were processed

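The authors hybridised liver RNA of each mouse to a GeneChip Mouse Genome array and summarised it with MAS5. The deposited values are signal intensities on a linear scale, not scaled between arrays, and the number of arrays limits their precision. Samples were grouped by their titles, and each array is a separate mouse. Each array was divided by its 75th percentile and multiplied by the geometric mean of all 15 (54.1). Values under 1 were raised to 1 (11.3% of values) and log2 was taken. Probe sets at or above the array median in all 5 arrays of a group were fitted over the 3 groups with limma 3.58.1 in R 4.3.3, with Benjamini-Hochberg adjustment over all probe sets tested, after a check on simulated data. Members, gene lists and tests were chosen with earlier results of these data known. Values are printed in every mouse for members that passed in any comparison (the brightest such probe set) and for the main liver-secreted serpins. A bound on a fold is taken against the array median. Gene symbols came from the platform's annotation (34958 probe sets with 1 symbol, 932 with several, 9211 with none), and promoters and gene order from RefSeq, GRCm38.p6. Alternatives were no filter or a stricter one, no scaling, quantile normalization, an offset of 16, the methods' test (Welch's analysis over the 3 groups with a Tukey-type comparison), a trend with a robust prior, only the 2 groups compared, a replicate block, the β-actin covariate, the mean of a gene's probe sets and each mouse left out. The adjusted p printed for the methods' test is the larger of 2 values, the adjusted p over the 3 groups and the pairwise p, which was not adjusted over probe sets.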

Additional observations from a re-analysis of the deposited data

Results flagged for a closer look

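Among 87 sets of 5 mice (29 probe sets in 3 diets), 3 held a mouse far from the other 4, and chance marks about 1 in 20 such sets. Serping1 read 12.46 in NC replicate 2, where the next value was 12.18. A probe set of Serpina1b read 13.42 in the same mouse, where the next value was 13.17. The Serpinh1 probe set that was not called read 4.24 in NC replicate 3, where the next lowest value was 5.21.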

How the results depend on the processing

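No called difference of a member changed sign under any alternative run. For CL against NC (14 members called), the stricter filter gave 8 (4 higher), the methods' test 7 (3 higher) and the β-actin covariate 9 (4 higher), and leaving out 1 mouse gave 12 to 19, the highest without CL replicate 2. Of all probe sets there, the stricter filter called 2125 of 10855, the methods' test 1379 of 20342 and the β-actin covariate 1139 of 20342. For CL+CX against CL (1 called), no filter, signals as deposited, only the 2 groups compared and the β-actin covariate gave 0, the stricter filter, quantile normalization and the methods' test gave 2, and the offset and the trend with a robust prior gave 3. Leaving out 1 mouse gave 0 to 3 there, with 0 without NC replicate 2 or 5, CL replicate 1 or 3, or CL+CX replicate 2, 3, 4 or 5, 2 without NC replicate 4 or CL replicate 5, and 3 without CL+CX replicate 1. For CL+CX against NC (9 called), no filter gave 4 and the β-actin covariate 5, and leaving out 1 mouse gave between 7, when CL+CX replicate 5 was dropped, and 14, when CL replicate 2 was. Over all probe sets, calls ranged from 1127 (no filter) to 3842 (without CL replicate 2) beside 2491 in CL against NC, from 1 (β-actin covariate) to 995 (offset) beside 637 in CL+CX against CL, and from 605 (no filter) to 3202 (only the 2 groups) beside 1991 in CL+CX against NC. The stricter filter tested 10855 probe sets and no filter 45037. In CL against NC, every called member that the stricter filter still tested kept its call, and the other called members were not tested there. The cause of the other changes was not tested. Serpinb1a, Serpina6, Serpinb6a, Serpinb6b and the first Serpinb8 probe set kept their calls in CL against NC under all alternatives in which they were tested.

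No pairing of mice by replicate number was seen, though low correlations cannot show that there was none. Deviations of same-numbered mice from their group means correlated at -0.0142 to 0.135 in CL and NC, -0.132 to 0.0452 in CL+CX and CL, and -0.0906 to 0.0597 in CL+CX and NC. With the replicate block, 15, 0 and 9 members were called in the 3 comparisons, and Serpinb6a in CL+CX against CL had an adjusted p of 0.0714. Signals near the array median, such as those of Serpinb8 and the untested members, limit what can be seen. With the signals as deposited, 96.2%, 28.4% and 90.3% of all calls in these comparisons, in the same order, were higher, the medians of all probe sets were 0.23, -0.03 and 0.21, and the serpin calls were 10 higher and 3 lower, 0 and 0, and 6 and 2.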

Other observations

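Probe sets that match several serpin genes were kept out of the family. One for Serpina1d and Serpina1a differed by -0.33 in CL against NC (SE 0.122, adjusted p = 0.0912) and by 0.07 in CL+CX against CL (adjusted p = 0.819). Another for Serpina1e, Serpina1c and Serpina1b differed by -0.71 (SE 0.241, adjusted p = 0.0676) and 0.16 (adjusted p = 0.778). The one shared by 4 Serpinb9 relatives was not tested. Of other cell types, 1 of 3 tested platelet markers rose in CL against NC, none of 2 B cell markers and none of 7 sinusoidal endothelial markers was called, and the 1 tested bile duct marker was not called and fell in CL+CX against CL.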
